A study of Mus musculus with 21 samples.

Results

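The end of erythroid differentiation was compared with its start in MEDEP cells, an erythroid progenitor line that was derived from mouse embryonic stem cells. The members are the 3 libraries taken 72 h after induction and the 3 taken at 0 h, chosen by the time given in the labels, 6 of 21 libraries in all. The cells, of the BRC5 line, grew in IMDM with 15% FCS, ascorbic acid, ITS supplement and alpha-TG. At 0 h this medium also held 50 nM SCF (stem cell factor, which binds the receptor Kit) and the synthetic glucocorticoid dexamethasone, and no erythropoietin (Epo) had been added. The 72 h cells had lost SCF and dexamethasone and had received 4 U/ml Epo, the hormone that keeps maturing erythroblasts alive. They had also been diluted to hold the cell density down. Neither group had received succinyl acetone. All libraries come from this 1 line, so the replicates, which the study calls biological, measure the spread between samples of the line. The labels do not say whether they were separate cultures, and the p-values cover the spread between these samples, which may be technical.

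A red cell precursor that leaves the progenitor state stops dividing, fills with hemoglobin, condenses its nucleus and finally loses the nucleus, its mitochondria and its ribosomes. As transcription winds down, the messages that last longest or are still made come to dominate the RNA, above all those of the globins. Hemoglobin is made of alpha and beta globin chains that each hold a heme, so the globin genes, the enzymes of heme synthesis and the proteins that bring and store iron act together. In this cell type the factors GATA1 and KLF1 are known to bind GATA and CACCC motifs at many of these genes.

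Upstream sequences of 5 genes on which the results turn are shown first, because they were among the genes with the largest rises. They are the bases upstream of the RefSeq start site (GRCm38.p6), 5′ to 3′ on the gene's strand, cut to a stretch that lies outside exons of coding transcripts in GENCODE M21. Only stretches with a match to a searched motif were kept, and the longest of them is shown. Capitals mark a GATA motif (AGATAA, or its reverse complement), a CACCC motif (CCACCC, or its reverse complement) and, in Ifit1 alone, the interferon-stimulated response element in the form shown there, with any bases at its middle pair of positions. Each was searched on both strands. Hba-a2 is an alpha globin gene (chr11:32296242-32296488, plus strand), Hbb-bs (chr7:103828097-103828178, minus strand) and Hbb-bt (chr7:103813997-103814173, minus strand) are adult beta globin genes, Alas2 (chrX:150547167-150547374, plus strand) encodes the first enzyme of heme synthesis in erythroid cells, and Ifit1 (chr19:34640744-34640870, plus strand) is an interferon-stimulated gene.
Hba-a2: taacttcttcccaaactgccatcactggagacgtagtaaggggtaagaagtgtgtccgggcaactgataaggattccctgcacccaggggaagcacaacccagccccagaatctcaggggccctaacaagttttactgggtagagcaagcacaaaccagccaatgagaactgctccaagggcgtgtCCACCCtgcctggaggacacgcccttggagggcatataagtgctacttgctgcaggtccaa
Hbb-bs: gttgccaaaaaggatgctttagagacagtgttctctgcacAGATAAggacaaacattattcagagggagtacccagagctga
Hbb-bt: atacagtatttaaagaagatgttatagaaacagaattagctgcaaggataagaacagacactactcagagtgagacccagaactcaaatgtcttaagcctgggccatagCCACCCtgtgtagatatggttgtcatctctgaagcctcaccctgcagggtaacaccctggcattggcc
Alas2: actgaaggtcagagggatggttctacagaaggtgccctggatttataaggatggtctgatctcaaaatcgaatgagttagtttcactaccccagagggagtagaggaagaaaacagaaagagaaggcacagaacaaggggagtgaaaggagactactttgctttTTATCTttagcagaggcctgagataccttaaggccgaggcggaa
Ifit1: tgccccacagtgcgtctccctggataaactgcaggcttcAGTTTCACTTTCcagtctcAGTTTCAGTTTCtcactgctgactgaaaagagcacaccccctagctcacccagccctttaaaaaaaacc

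A GATA motif stood in the stretches of Hbb-bs and Alas2, and a CACCC motif in those of Hba-a2 and Hbb-bt. Each stretch was chosen to hold a match, so the presence of one was fixed by that choice and is not a finding. Other forms of these motifs were not searched. The bases cut from the Alas2 stretch held CACCC matches from -40 to -25 relative to the start site. The stretches, 82 to 247 bases long, are shorter than those behind the shares that follow. The Ifit1 stretch held 2 copies of the interferon-stimulated response element. Of the 27025 genes in the RefSeq table, 11.4% held the GATA motif, 30.6% the CACCC motif and 0.255% the interferon-stimulated response element in the 250 bases before a start site. The GATA and CACCC motifs are therefore common, and a match is a description of these letters, not a bound site. The 250 bases before the Hba-a1 start hold the same 247 bases as those shown for Hba-a2. The coding sequences of Hba-a1 and Hba-a2 (429 bases) differed at 1 base, as did those of Hbb-bs and Hbb-bt (444 bases). Reads from such near-identical copies can be split between them by the counting, so single copies are uncertain. The sums are used below wherever a change of the globins is stated, and values of single copies are given as they stand in the tables.

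The totals lay between 23.8 and 32.0 M estimated counts at 0 h and between 27.7 and 36.1 M at 72 h. Counts were scaled with TMM, a size-factor method that takes most genes as unchanged between libraries, and are given as normalized counts-per-million (CPM). The TMM factors were 1.64 to 1.70 at 0 h and 0.423 to 0.570 at 72 h, so the choice of scale decides much of what is called higher or lower. On the TMM scale the median log2 change of the 12360 tested genes was -0.13. With the size factors of DESeq2 it was 0.13, and smaller changes should be read against that shift. In TPM (transcripts-per-million, a share of the library per transcript length) the median of the 9440 genes tested was -3.28 on the log2(TPM + 1) scale. In these bulk libraries, fewer cells of a type and less RNA per cell cannot be told apart.

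At 72 h nearly the whole transcriptome had moved on either scale. The edgeR quasi-likelihood test with Benjamini-Hochberg adjustment called 5354 genes higher (43.3% of those tested) and 5748 lower (46.5%), together 89.8%. The 3 libraries of a group did not overlap those of the other for 89.5% of tested genes, 42.5% higher and 47% lower. With a fold of at least 2 there were 4466 higher (36.1%) and 4546 lower (36.8%). In TPM, limma on log2(TPM + 1) called 523 genes higher (5.54%) and 8625 lower (91.4%), together 96.9%. Of the genes tested on both scales, 520 were higher on both and 5450 lower on both, whereas 2410 were higher on the TMM scale and lower in TPM. Below, "rose" and "fell" without a scale refer to the edgeR test, and TPM is named where it is meant. The TMM premise that most genes are unchanged is not met by these calls. A rise or fall on the TMM scale is therefore relative to the other genes, not an amount per cell. The list counts that follow have to be read against these background shares.

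The progenitor transcriptome was spread over many genes and the 72 h transcriptome over very few. At 0 h the genes that together held 50% of all TPM numbered 181, 191 and 209 in the 3 libraries. At 72 h they numbered 2 in each. The 10 highest genes took 18.7 ± 0.824% of TPM at 0 h (SD, n = 3) and 88.5 ± 3.23% at 72 h (SD, n = 3). Leaving out the globin genes, the number holding 50% was still lower at 72 h, at 68, 59 and 46 genes, than at 0 h, at 180, 190 and 208. An exact permutation test of 3 libraries against 3 cannot go below p = 0.10, so these shares are given with their non-overlapping values alone. Genes with at least 100 TPM numbered 1474, 1495 and 1527 at 0 h, and 206, 137 and 258 at 72 h. Genes with any count went the other way, from 13908 ± 353 (SD, n = 3) to 15572 ± 602 (SD, n = 3).

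Globin, mitochondrially encoded and ribosomal protein transcripts changed places. Globin genes held 0.160, 0.203 and 0.127% of TPM in the 0 h libraries and 83.5, 89.2 and 79.9% in the 72 h libraries. The 13 genes of the mitochondrial genome, which encode subunits of the respiratory chain, held 19.5, 20.2 and 18.3% at 0 h and 1.24, 0.576 and 1.20% at 72 h. The 96 genes with the symbol of a cytosolic ribosomal protein, pseudogenes and close relatives included, held 17.5, 16.9 and 17.6% at 0 h and 0.665, 0.424 and 0.699% at 72 h. None of these ranges overlapped. The mitochondrial and ribosomal protein shares were also lower within the TPM left after removing globins: the mitochondrial share went from 19.4 ± 0.958% to 6.28 ± 1.14% (SD, n = 3 each) and the ribosomal protein share from 17.3 ± 0.376% to 3.81 ± 0.299% (SD, n = 3 each). Fewer counts than TPM went to globins at 72 h, 31.7, 36.9 and 37.0% of each library's counts.

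**Figure D1:**
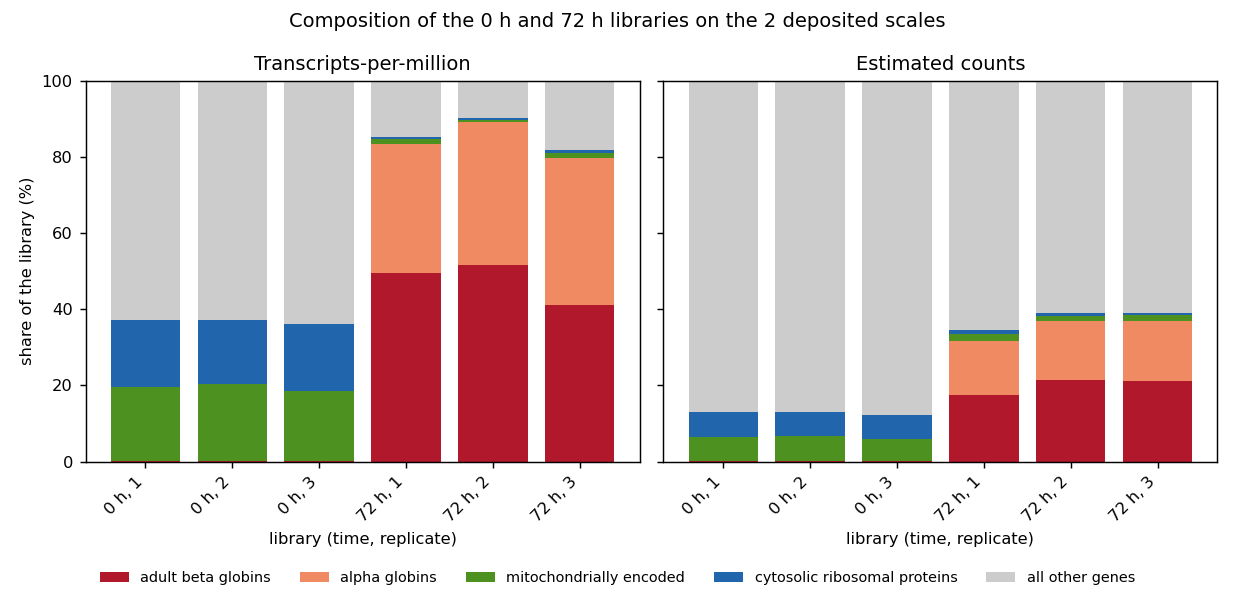
Share of each of the 6 libraries (x axis: time and replicate, y axis: percent) taken by adult beta globins, alpha globins, mitochondrially encoded genes, cytosolic ribosomal proteins and all other genes, in TPM (left) and in estimated counts (right). Globins fill 79.9 to 89.2% of TPM at 72 h but 31.7 to 37.0% of counts.

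The 2 deposited tables treat the globins differently, and the cause was not tested. Between 0 h and 72 h the CPM obtained per TPM rose by a median of 1.93 on the log2 scale over the 8997 genes whose mean count reached 100 (5th to 95th percentile 1.44 to 2.23). For Hba-a1, Hba-a2, Hbb-bs and Hbb-bt it rose by 0.03, 0.13, 0.31 and 0.40. Globins thus gained more on other genes in TPM than in counts. For Slc4a1, Fth1 and Pabpc1 the value was 1.96, 1.93 and 1.86, near the median, and for Ftl1 it was 1.32. All shares of TPM at 72 h carry this difference.

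The summed alpha globins, Hba-a1 and Hba-a2, stood at 266, 238 and 163 normalized CPM at 0 h and at 247227, 362451 and 372090 at 72 h. Their sum rose by 10.52 ± 0.25 on the log2 scale (SE, adjusted p = 6.2e-19). The adult beta globins, Hbb-bs and Hbb-bt, rose from 112, 217 and 111 to 308187, 499304 and 502614 normalized CPM, a change of 11.54 ± 0.33 (SE, adjusted p = 7.4e-18). In both sums 72 h replicate 1 was the lowest of its group, and the groups lay about 3 orders of magnitude apart. The ratio of alpha to beta counts was 2.38, 1.10 and 1.47 at 0 h and 0.802, 0.726 and 0.740 at 72 h. Alpha counts thus exceeded beta counts in the progenitors and were the smaller share at the end. In TPM, which allows for transcript length, the ratio was 2.13, 0.959 and 1.29 at 0 h. At 72 h it was 0.686, 0.724 and 0.939. Alpha TPM thus lay below beta TPM in 0 h replicate 2, and 72 h replicate 3 came close to that library.

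The single copies were less stable than the sums. Hba-a1 took 34.4, 24.1 and 71.7% of alpha globin counts in the 72 h libraries, with replicate 3 apart from the others, and 59.6, 49.7 and 53.0% at 0 h. Without 72 h replicate 3 the log2 change of Hba-a1 was 9.45 in place of 10.24, and in TPM 7.34 in place of 8.02. The 72 h TPM values of Hbb-bs were 451606, 475768 and 288886, and those of Hba-a2 were 247964, 318358 and 95487. Replicate 3 was the lowest for both genes and the highest for Hba-a1, at 91792, 56114 and 291197 TPM, and for Hbb-bt, at 43728, 41591 and 122937 TPM. All 9 tested genes of the globin list rose on both scales. The theta globin gene Hbq1b, a member of the alpha cluster, stood at 0.296, 0.546 and 0.703 TPM at 0 h and at 239, 185 and 308 TPM at 72 h.

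Few abundant transcripts of the progenitor kept their place. Of the 10 genes highest in TPM at 0 h, 2 were among the 10 highest at 72 h, namely mt-Co1 and Klf10. Of the 100 highest, 19 were in the top 100 at both times, and of the 500 highest, 164. The 100 highest at 0 h held 65 of these 96 ribosomal genes and 12 mitochondrially encoded genes, and their median TPM was 2299 at 0 h and 58.5 at 72 h. On the TMM scale 87 of these 100 fell and 9 rose. The 100 highest at 72 h held 5 globin genes, 9 mitochondrially encoded genes and 5 of ribosomal proteins. Of them 90 rose on the TMM scale, and 65 rose, 27 fell and 8 did not pass the test in TPM. Their median TPM had been 180 at 0 h and was 395 at 72 h, and 11 of them had been under 10 TPM at 0 h.

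The 19 genes that stayed among the 100 highest were 9 mitochondrially encoded genes (mt-Co1, mt-Atp6, mt-Co2, mt-Atp8, mt-Co3, mt-Nd4, mt-Nd2, mt-Nd4l and mt-Cytb), the ribosomal protein genes Rpl41, Rplp0, Rpl23a and Rpl10a, the predicted gene Gm11808, and Ftl1, Klf10, B2m, Tpt1 and Eef1a1. Of these 19, 9 rose and 9 fell on the TMM scale. In TPM, Ftl1 and B2m rose, Klf10 did not pass the test and the other 16 fell. Genes with at least 100 TPM in all 3 libraries numbered 1434 at 0 h and 135 at 72 h, and 77 reached that level in all 6 libraries. Of these 77, 63 rose and 13 fell on the TMM scale. The other 58 of the 135 did not reach it in all 3 libraries at 0 h, and 12 of them were under 10 TPM in every 0 h library.

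**Figure D2:**
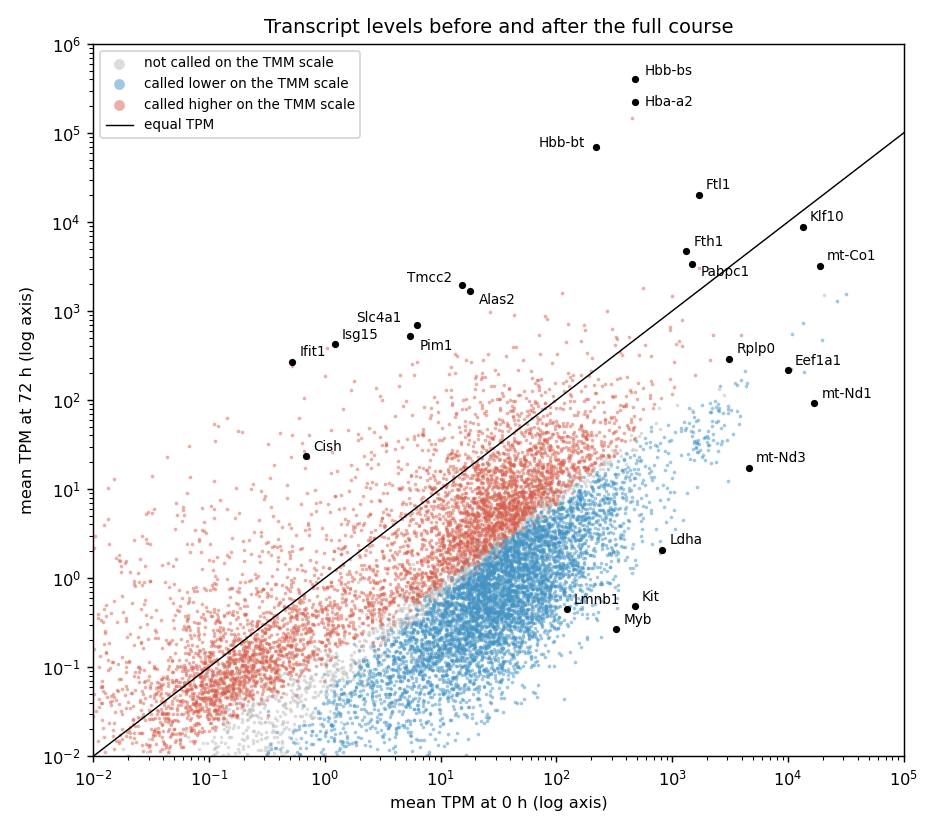
Mean TPM of each tested gene at 0 h (x, log axis) against 72 h (y, log axis), 3 libraries each, coloured by the edgeR call on the TMM scale, with the line of equal TPM and named genes as black points. Most genes lie below the line, including many called higher on the TMM scale, while the globins, Ftl1, Tmcc2, Alas2 and Isg15 lie far above it.

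The 2 ferritin chains were the leading transcripts after the globins that rose on both scales. Ftl1, the light chain of the iron store ferritin, had 1912, 1523 and 1636 TPM at 0 h and 20412, 14906 and 25796 TPM at 72 h. Fth1, the heavy chain that oxidizes the iron, had 1400, 1250 and 1309 TPM at 0 h and 4128, 3492 and 6525 TPM at 72 h. The groups did not overlap for either gene. Ftl1 rose by 6.75 ± 0.20 on the TMM scale (SE, adjusted p = 1.6e-17) and by 3.56 in TPM, and Fth1 by 5.62 ± 0.16 (SE, adjusted p = 8.5e-18) and by 1.79 in TPM.

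Pabpc1, which binds the poly(A) tails of messages, stood at 1475, 1431 and 1520 TPM at 0 h and at 3045, 2658 and 4504 TPM at 72 h, and rose on both scales (4.91 ± 0.16 on the TMM scale, SE). B2m, the light chain of class I histocompatibility molecules, had 1994, 1458 and 1686 TPM at 0 h and 3807, 1638 and 3779 TPM at 72 h. Its groups overlapped in TPM, because 72 h replicate 2 was low, and did not overlap in normalized CPM, at 408, 297 and 328 against 7600, 6204 and 7289. The rise of B2m in TPM, 0.75, had an adjusted p of 0.010, which was 0.071 without 72 h replicate 1 and 0.065 without 72 h replicate 3.

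Klf10, a zinc finger gene of the Krüppel-like family, was the sixth gene in TPM at 72 h. It had 17390, 10296 and 12464 TPM at 0 h and 7343, 4392 and 14702 TPM at 72 h, and the groups overlapped. The change in TPM was -0.74 ± 0.39 (SE, adjusted p = 0.069). Without 72 h replicate 3, the highest library of its group, it was -1.20 with an adjusted p of 0.00457, and without 0 h replicate 2 it was -0.92 with an adjusted p of 0.048. On the TMM scale Klf10 rose by 3.03 ± 0.24 (SE), from 1249, 743 and 848 to 6282, 7118 and 9771 normalized CPM. Its CPM per TPM at 0 h was 0.117, against a median of 1.68 over tested genes, so that its TPM is high for its counts. GENCODE M21 lists coding transcripts of Klf10 from 326 to 3044 bases, and which of them carries these reads was not tested.

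Other transcripts entered the top of the ranking from low levels. Tmcc2, a gene of a transmembrane coiled-coil protein counted here with the red cell membrane, stood at 12.1, 18.3 and 15.0 TPM at 0 h and at 1739, 1491 and 2612 TPM at 72 h. Slc4a1, the anion exchanger band 3, had 5.63, 6.94 and 6.31 TPM and then 612, 527 and 944 TPM. Pim1, a kinase induced through the Epo receptor and STAT5, had 5.06, 6.18 and 5.10 TPM and then 527, 400 and 646 TPM. The groups lay far apart for all 3 genes. They rose by 10.70 ± 0.25, 10.60 ± 0.22 and 10.43 ± 0.21 on the TMM scale (SE). Ppp1r15a, which directs a phosphatase to the translation factor eIF2, rose by 8.87 ± 0.19 (SE), from 25.5, 30.7 and 24.3 TPM to 1047, 651 and 1192 TPM. Sqstm1, an adaptor that carries ubiquitinated cargo to autophagosomes, rose by 7.11 ± 0.21 (SE), from 81.9, 81.2 and 86.5 TPM to 780, 665 and 1028 TPM.

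Heme synthesis moved unevenly along the pathway. Of the 8 tested enzymes 6 rose and none fell on the TMM scale, with a median of 3.21 against -0.13 over all tested genes. In TPM 3 rose, 4 fell and 1 did not pass the test. Alas2, whose upstream GATA motif is shown above, had 19.6, 18.2 and 16.1 TPM at 0 h and 1390, 1099 and 2531 TPM at 72 h, and rose by 10.11 ± 0.22 on the TMM scale (SE, adjusted p = 3.0e-19). Fech, which inserts iron into the finished ring, rose by 4.27 ± 0.14 on the TMM scale (SE). It had 132, 129 and 136 TPM at 0 h and 166, 137 and 242 TPM at 72 h, where replicate 2 lay just above the 0 h libraries. In TPM limma gave Fech an adjusted p of 0.047. This call was lost without 72 h replicate 3 (0.328) and without any 1 of the 0 h libraries (0.0718 to 0.0967). Alad and Cpox did not pass the test on the TMM scale, at -0.09 and 0.25, and both fell in TPM.

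Genes of iron uptake and storage rose and fell in about the background proportions, 7 of 15 tested genes higher and 8 lower, with a median of -0.62. In TPM 2 of 13 rose and 10 fell. Besides the ferritins, Ncoa4, the receptor that takes ferritin to autophagosomes, rose by 3.30 ± 0.11 (SE) on the TMM scale. In TPM Ncoa4 did not pass the test (-0.44, limma, adjusted p = 0.057), but it was called lower with the replicate block (0.042), without 72 h replicate 1 (-0.62, 0.014) and without 72 h replicate 3 (-0.60, 0.016). Tfrc, the transferrin receptor, rose by 2.18 ± 0.14 (SE) on the TMM scale, from 464, 486 and 433 to 1957, 1794 and 2528 normalized CPM, and fell in TPM, from 302, 317 and 300 to 116, 60.6 and 147. Steap3, the endosomal iron reductase, fell by 3.46 on the log2 scale, and so did Aco1, which as IRP1 binds iron-responsive elements, by 3.57. The transporters of heme and iron were 6 up and 4 down of 11 on the TMM scale, and 2 up and 9 down in TPM. Slc25a39 of the inner mitochondrial membrane rose by 6.39 ± 0.14 (SE), Slc48a1, a heme transporter, by 5.17 ± 0.15 (SE), and the mitochondrial iron carrier Slc25a37 by 1.68 ± 0.22 (SE), while the heme exporter Flvcr1 fell by 3.68.

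Membrane and skeleton genes of the red cell mostly rose on the TMM scale, 22 of 27 with 4 falling and a median of 1.73. In TPM 6 rose, 19 fell and 1 did not pass the test. Slc2a1, a glucose transporter, rose by 9.40 ± 0.42 (SE), from 2.27, 3.14 and 2.83 TPM to 183, 86.9 and 140 TPM. Rhag, Tpm3 and Aqp1, genes of the Rh complex, of the actin filaments of the skeleton and of a water channel, fell on both scales, as did the adhesion gene Icam4. Rhag went from 526, 496 and 477 to 183, 145 and 209 normalized CPM.

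Transcription regulators of the erythroid program rose in 15 of 21 cases and fell in 4, with a median of 2.28. In TPM 5 rose and 14 fell. Mafk and Nfe2, which encode the 2 parts of a DNA-binding dimer at globin loci, rose by 5.70 ± 0.18 and 4.79 ± 0.09 (SE) and also rose in TPM. Gata1 had 129, 117 and 116 normalized CPM at 0 h and 833, 840 and 881 at 72 h, a rise of 2.82 ± 0.09 (SE), but in TPM it went from 164, 144 and 155 to 84.8, 48.2 and 89.3 and fell. Tal1, its partner, rose by 4.36 ± 0.09 (SE), with 66.8, 61.2 and 66.2 against 99.1, 66.4 and 112 TPM, where 72 h replicate 2 lay within the 0 h values. Its rise in TPM (limma, adjusted p = 0.018) was lost without 72 h replicate 1 (0.0593), 72 h replicate 3 (0.104) or 0 h replicate 2 (0.0563). Klf1 did not pass the test on the TMM scale, at 84.1, 77.8 and 79.6 against 76.4, 67.2 and 65.0 normalized CPM (-0.21 ± 0.11, SE, adjusted p = 0.064), and it fell in TPM. Klf1 was called lower in edgeR without a count filter (-0.43, adjusted p = 0.00080), without 0 h replicate 2 (0.041) and without 72 h replicate 1 (0.019). Gata2, the progenitor GATA factor, fell by 1.23 on the log2 scale, and Ikzf1 and Bcl11a fell by 4.39 and 4.06.

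Genes of terminal maturation had the third highest median of the 33 lists, 5.91, with 21 of 22 higher and Maea lower, and in TPM 15 rose, 4 fell and 3 did not pass the test. Ube2o, a ubiquitin ligase that acts on ribosomes in reticulocytes, rose by 7.53 ± 0.22 (SE), from 21.8, 24.3 and 23.9 TPM to 222, 218 and 405 TPM. Bpgm, which makes the 2,3-bisphosphoglycerate that lowers the oxygen affinity of hemoglobin, rose by 7.53 ± 0.14 (SE), from 23.0, 29.6 and 25.0 TPM to 325, 237 and 433 TPM. Xpo7 and Btg2, an export receptor and an antiproliferative gene, rose by 5.34 ± 0.13 and 5.31 ± 0.11 (SE). Maea, a subunit of a ubiquitin ligase, fell by 0.38 on the TMM scale, a call lost with the size factors of DESeq2 and in its Wald test.

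Autophagy and mitochondrial clearance genes rose in 19 of 23 cases and fell in 4, with a median of 3.39. In TPM 8 rose and 11 fell. Calcoco1 and Gabarap, a receptor and a membrane-bound tag of autophagosomes, rose by 6.29 ± 0.18 and 5.62 ± 0.15 (SE). Bnip3l, the receptor known for the removal of mitochondria from reticulocytes, rose by 4.18 ± 0.14 (SE) on the TMM scale, and its TPM values, 44.6, 48.8 and 46.9 against 54.9, 40.3 and 82.8, overlapped. Without 72 h replicate 2 Bnip3l was called higher in TPM (0.52, limma, adjusted p = 0.012). Atg5 and Atg7 of the conjugation machinery fell by 2.81 and 1.98 on the log2 scale. Of the genes in the response to HRI and ATF4, which holds back translation when heme is short, 16 of 22 rose and 5 fell. In TPM 7 of 20 rose and 10 fell. Eif2ak1, which encodes the kinase HRI, rose by 4.67 ± 0.11 (SE), whereas Psat1 and Phgdh, enzymes of serine synthesis, fell by 5.66 and 5.57.

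All 25 tested genes of the interferon-stimulated list rose on the TMM scale, with a median of 9.59, and all 21 tested in TPM rose as well, with a median of 3.38. These genes encode antiviral effectors and sensors. Isg15, a ubiquitin-like modifier, had 0.738, 2.26 and 0.637 TPM at 0 h and 312, 241 and 714 TPM at 72 h. Ifit1, whose upstream sequence above holds 2 interferon-stimulated response elements, had 0.286, 1.01 and 0.273 TPM and then 254, 154 and 402 TPM. Oasl2 had 0.479, 1.84 and 0.798 TPM and then 344, 268 and 541 TPM. The groups did not overlap, and 0 h replicate 2 was the highest 0 h library for all 3. They rose by 12.47 ± 0.43, 12.92 ± 0.40 and 12.64 ± 0.37 on the TMM scale (SE). Without 0 h replicate 2 the values for Isg15 and Ifit1 were 13.18 and 13.69. Mx2 had 0 counts at 0 h and 2024 at 72 h over the 3 libraries, at least 2129-fold higher when 3 counts in the group are taken as the floor.

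**Figure D3:**
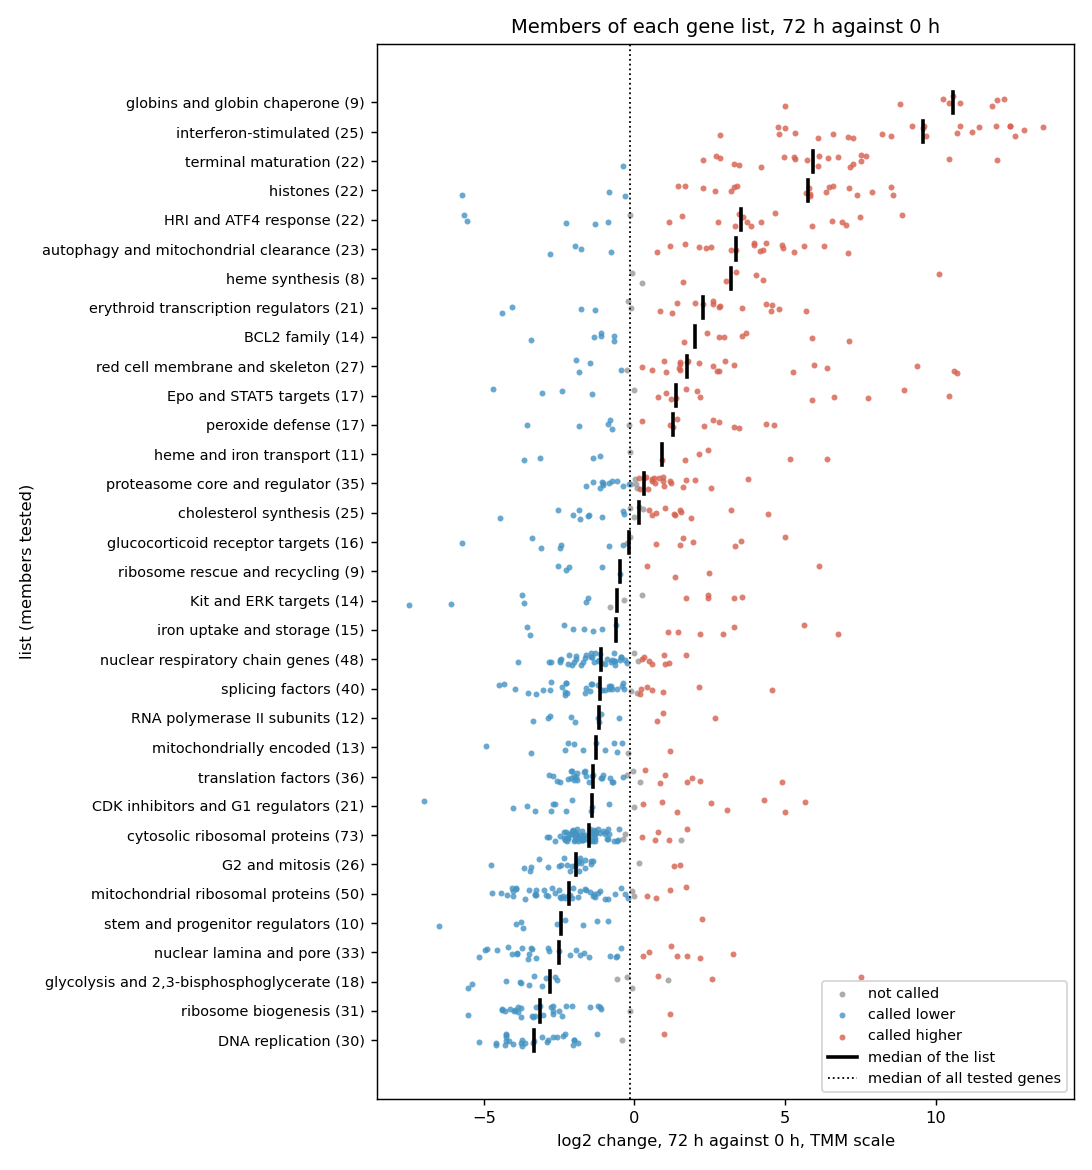
Log2 change between 0 h and 72 h on the TMM scale (x) of each tested member of the 33 pathway lists (y, number tested in parentheses), coloured by the edgeR call, with each list's median as a black bar and the median of all tested genes, -0.13, as a dotted line. Globins, interferon-stimulated genes and terminal maturation genes lie at the top, and DNA replication and ribosome biogenesis genes at the bottom.

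Targets of Epo and STAT5 were 12 up and 4 down of 17 on the TMM scale. In TPM 4 of 15 rose and 11 fell. Cish, an inhibitor of the Epo receptor, rose by 8.94 ± 0.21 (SE), from 0.935, 0.838 and 0.833 to 341, 408 and 541 normalized CPM. Socs1, another inhibitor, rose by 7.74 ± 0.44 (SE), and Bcl2l1, the survival gene of the late erythroblast, by 5.90 ± 0.16 (SE). Stat5a and Stat5b fell by 4.70 and 3.07. In the BCL2 family 8 of 14 rose and 6 fell on the TMM scale, and in TPM 2 of 11 rose and 8 fell. Bbc3, a killer of the family, rose by 7.11 ± 0.28 (SE), from 2.21, 2.26 and 2.48 to 327, 322 and 314 normalized CPM, and Bcl2 itself fell by 3.43.

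Regulators of the progenitor state mostly fell, whereas targets of Kit and ERK and of glucocorticoids rose and fell in about the background proportions. Kit had 976, 957 and 1025 normalized CPM at 0 h and 19.1, 10.9 and 12.9 at 72 h, and fell by 6.11 on the log2 scale (SE 0.25, adjusted p = 2.5e-15). Myb, a factor that keeps progenitors cycling, had 374, 361 and 384 and then 6.84, 3.18 and 2.34 normalized CPM, and fell by 6.49. Replicate 1 was the highest 72 h library for both, and without it the change of Myb was -7.09. Myc fell by 2.32 on the log2 scale. Of the 10 tested stem and progenitor regulators 9 fell and 1, Runx1, rose (2.24 ± 0.09, SE). Targets of Kit and ERK were 5 up and 6 down of 14 on the TMM scale, and all 10 tested in TPM fell. Dusp5 rose by 3.56 on the TMM scale, and Fosl1 and Spry2 rose as well. Etv4, an ERK-driven factor, had 1232 counts at 0 h and 2 at 72 h, 195-fold higher at 0 h (95% counting interval 53.9 to 1613). Ccnd1 had 1254 counts and then 3, 132-fold higher at 0 h (45.2 to 643), the 3 counts all in 72 h replicate 1, so that without it the group is at 0. Glucocorticoid targets were 7 up and 7 down of 16 on the TMM scale, and 2 up and 13 down of 15 in TPM. Glul rose by 3.54 ± 0.14 (SE) on the TMM scale, and Dusp1 and Ddit4 rose as well. Fkbp5 and the metallothioneins Mt1 and Mt2 fell by 5.73, 3.40 and 3.11.

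Genes that make ribosomes mostly fell. In ribosome biogenesis 29 of 31 tested genes fell, at a median of -3.14, and Ubtf, a factor of ribosomal RNA transcription, rose. Nop56, a core protein of box C/D particles, had 690, 659 and 645 TPM at 0 h and 3.08, 1.73 and 2.45 TPM at 72 h. In the list of cytosolic ribosomal proteins, a narrower set of 73 genes with 58 in the top 100 at 0 h, 65 fell and 5 rose, with a median of -1.52, and all 73 fell in TPM, with a median of -5.40. Within the list the change ran from 1.76 ± 0.13 (SE) for Rpl28 to -2.91 for Rps4x. Rpl41, the shortest of these proteins, rose by 0.77 ± 0.11 (SE). Rplp0 had 1647, 1483 and 1558 against 1595, 2105 and 1924 normalized CPM, which overlapped, and its call (0.26, adjusted p = 0.028) was lost without a count filter (0.778) and without any of 0 h replicate 2 (0.151), 0 h replicate 3 (0.092), 72 h replicate 2 (0.232) or 72 h replicate 3 (0.097), all edgeR adjusted p-values. Translation factors fell in 26 of 36 cases. Eef1a1, the most abundant of them at 0 h, had 9921, 9960 and 9949 TPM at 0 h and 248, 165 and 241 TPM at 72 h.

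The transcripts of the mitochondrial genome did not change alike, although they are copied from 1 circular DNA as long precursors. Of 13 tested, mt-Co1 rose by 1.18 ± 0.09 (SE, adjusted p = 1.3e-10) and fell by 2.63 in TPM, mt-Co2 did not pass the test (-0.21 ± 0.11, SE, adjusted p = 0.073) and 11 fell on the TMM scale. mt-Co2 was called lower in edgeR without a count filter (-0.43, adjusted p = 0.00061), without 0 h replicate 3 (0.040) and without 72 h replicate 1 (0.018). mt-Co1 had 8766, 8404 and 7609 normalized CPM at 0 h and 18917, 17624 and 19707 at 72 h. mt-Nd1 had 3585, 3568 and 3013 and then 332, 283 and 315 normalized CPM, a change of -3.45. mt-Nd3 had 354, 355 and 300 and then 11.7, 12.0 and 9.48, a change of -4.92. The libraries of the 2 groups did not overlap for these 3 genes. In TPM mt-Co1 and mt-Nd3 changed by -2.63 and -7.98, so they lay apart on both scales, somewhat less in TPM. The fall of mt-Atp6, 0.42 on the log2 scale, was lost with the size factors of DESeq2. In TPM all 13 were lower at 72 h. Nuclear genes of the respiratory chain fell in 38 of 48 cases and rose in 8, with a median of -1.12, and mitochondrial ribosomal proteins fell in 44 of 50.

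**Figure D4:**
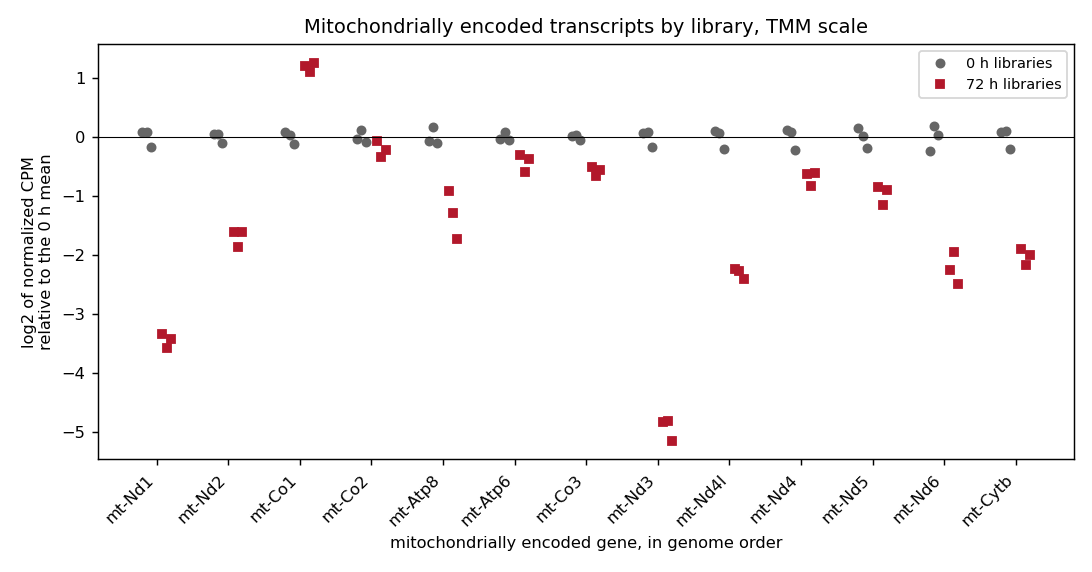
Log2 of normalized CPM relative to the 0 h mean (y) for the 13 mitochondrially encoded genes in genome order (x), with each 0 h library as a grey circle and each 72 h library as a red square. The 72 h libraries lie together for each gene, above 0 for mt-Co1 and lowest for mt-Nd3.

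Genes of cell division fell, with a few exceptions. DNA replication genes fell in 28 of 30 cases with a median of -3.35, and Pole, the leading-strand polymerase, went from 174, 165 and 153 to 3.04, 5.06 and 5.61 normalized CPM. Rrm2, which makes deoxynucleotides, was the exception that rose, by 0.99 ± 0.21 (SE), from 715, 657 and 695 to 765, 1643 and 1707 normalized CPM. Genes of G2 and mitosis fell in 23 of 26 cases, such as Aurkb by 4.76, and Nusap1 and Cdc25b rose. Mki67, the proliferation marker, did not pass the test, at 809, 876 and 809 against 592, 929 and 1231 normalized CPM (0.14 ± 0.19, SE, adjusted p = 0.49). Mki67 was called higher without 72 h replicate 1, its lowest library (0.37, edgeR, adjusted p = 0.040), and in the DESeq2 Wald test (0.41, adjusted p = 0.0498). Among CDK inhibitors and G1 regulators 8 rose and 12 fell of 21, and in TPM 2 rose and 18 fell of 20. Cdkn1b, which encodes the inhibitor p27, rose by 5.67 ± 0.15 (SE), from 27.2, 27.4 and 24.7 TPM to 102, 74.8 and 107 TPM.

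Nuclear genes divided by what they build. Lamina and pore genes fell in 26 of 33 cases with a median of -2.52. Lmnb1, the B-type lamin, went from 126, 129 and 121 to 4.44, 7.46 and 8.61 normalized CPM, and Lmna, the A-type lamin, rose by 3.28 ± 0.14 (SE) on the TMM scale. Splicing factors fell in 31 of 40 cases and subunits of RNA polymerase II in 9 of 12. Polr2a, the largest subunit, rose by 0.76 ± 0.07 (SE). Histone genes went the other way: 19 of 22 rose with a median of 5.75, and in TPM 11 rose, 7 fell and 2 did not pass the test. Hist1h2ac had 0.630, 0.762 and 0.352 normalized CPM and then 290, 191 and 177, a rise of 8.59 ± 0.27 (SE). These libraries hold polyadenylated RNA, in which replication-dependent histone messages are normally scarce. Hist2h2aa1 rose by 8.51 ± 0.52 (SE), or 9.63 without 0 h replicate 1. The variant histone gene H2afy fell by 5.73.

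Glycolysis genes mostly fell. Of 18 tested genes of glycolysis and 2,3-bisphosphoglycerate 11 fell and 3 rose, with a median of -2.80. Ldha had 801, 828 and 837 TPM at 0 h and 2.88, 1.24 and 2.15 TPM at 72 h, a change of -5.54 on the TMM scale. Pklr, the red cell pyruvate kinase, fell by 4.27, and Gapdh did not pass the test, at 828, 804 and 785 against 334, 666 and 618 normalized CPM (-0.58 ± 0.28, SE, adjusted p = 0.054). Gapdh was called lower in edgeR with the replicate block (-0.65, adjusted p = 0.0068), with the 6 libraries alone (0.039), without a count filter (0.0025) and without 72 h replicate 2 (0.024) or 3 (0.041). Actb, often used as a reference gene, did not pass it either (-0.06 ± 0.10, SE), was called lower without a count filter (-0.28, edgeR, adjusted p = 0.020) and higher in the DESeq2 Wald test (0.21, adjusted p = 0.044), and fell in TPM from 1142, 1074 and 1120 to 82.4, 53.1 and 129. Proteasome genes were 20 up and 11 down of 35, with Psme3, a nuclear activator, up by 3.77 ± 0.10 (SE), and in TPM 34 of 35 fell. Peroxide defense genes were 11 up and 5 down of 17 on the TMM scale, and 2 up and 14 down in TPM. Gpx4 rose by 4.65 ± 0.18 (SE), Cat by 3.47 ± 0.13 (SE) and Prdx2 by 2.30 ± 0.11 (SE), while Prdx4 fell by 3.56. In TPM Gpx4 rose and Prdx2 fell, and so did Cat, by a call near the threshold. Ribosome rescue genes were 4 up and 5 down of 9, and cholesterol synthesis genes 11 up and 10 down of 25. In TPM ribosome rescue genes were 1 up and 8 down of 9, and 22 of 24 cholesterol synthesis genes fell. Ubb, a ubiquitin gene, rose by 4.20 ± 0.13 (SE).

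The largest changes in either direction were found at genes that were nearly silent in one of the groups. Casp12, a caspase gene, had 0 counts at 0 h and 2958 at 72 h over the 3 libraries, which is at least 3112-fold higher. Gm20431, Sstr5, Fbxo41 and Apol9b were also at 0 at 0 h and were at least 2415-, 1218-, 1168- and 1073-fold higher. Fam180a had 1 count at 0 h, in replicate 2, and 4402 at 72 h. Gm4070 rose by 12.78 ± 0.32 (SE), or 14.37 without 0 h replicate 3. Among the falls, Nutf2-ps1 was at least 597-fold lower, but it is a pseudogene that can share reads with its parent gene. Crtap, Adam12 and Atp23 had 2 counts each at 72 h, all in 1 library (replicate 1, 2 and 3 in turn), and were 289-fold (95% counting interval 79.9 to 2389), 280-fold (77.5 to 2316) and 137-fold (37.8 to 1133) higher at 0 h. Slc28a2, a nucleoside transporter, fell by 7.69, or by 8.68 without 72 h replicate 1. Pkd1l3 fell by 7.45, or by 8.36 without 72 h replicate 2, and Abcb5 and Cdca7l fell by 7.85 and 7.13.

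The labelled cell type was checked against markers. Of the 12 erythroid markers 10 rose, Rhag fell and Klf1 did not pass the test, and their summed level went from 2022 to 2377 TPM at 0 h to 99655 to 418267 TPM at 72 h. That sum at 72 h is mostly Hba-a1 and Hbb-bt, whose values depend on the split between copies, and 72 h replicate 3 holds its highest value. The other 10 markers summed to 1568, 1479.7 and 1499 TPM at 0 h and to 2541, 1949 and 4133 TPM at 72 h, which did not overlap. Alas2 and Slc4a1 made up most of that sum at 72 h, at means of 1673 and 695 TPM, against 18.0 and 6.29 TPM at 0 h. In TPM 6 of the 12 markers rose and 6 fell. The listed markers of other cells stayed far lower in sum. Those of megakaryocytes summed to 13.0 to 16.4 TPM at 0 h and 25.5 to 53.9 TPM at 72 h, and 3 of the 10 passed the count filter and rose. Markers of mast cells and basophils summed to 52.8 to 73.7 TPM at 0 h and 4.37 to 8.77 TPM at 72 h, with 2 up and 3 down of 7 tested. That list does not hold the mast cell protease genes Mcpt1 and Mcpt2. These rose from means of 5.93 and 11.7 TPM at 0 h to 189 and 196 TPM at 72 h. Macrophage markers summed to 0.898 to 1.11 TPM at 0 h and 0.378 to 0.686 TPM at 72 h, and neutrophil markers to at most 0.930 TPM in any of the 6 libraries. Of 2 tested macrophage markers 1 rose and 1 did not pass the test, and both tested neutrophil markers rose. Lymphocyte, endothelial and pluripotency markers each had 2 members that passed the count filter, and both rose in each list. No stromal marker passed it. Of the 11 pluripotency markers, 3 had no count in any of the 6 libraries.

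The inner times show when the 72 h levels were reached. Slc4a1 stood at 25048 ± 2109 normalized CPM at 36 h and 20885.5 ± 4883 at 72 h, while the adult beta globin sum went from 189807 ± 17038 at 36 h to 296364 ± 24174 at 48 h and 436702 ± 111309 at 72 h (SD, n = 3 each). The 72 h replicate 1, at 308187, lay within the 48 h values of 301539, 317531 and 270021, and the other two lay above them. Isg15 stood at 0.240 ± 0.0388 at 24 h, 27.1 ± 5.29 at 36 h and 1641 ± 628 normalized CPM at 72 h (SD, n = 3 each). Kit and Myb were near their final level by 36 h. Rhag did not follow a single slope: it stood at 500 ± 24.5 normalized CPM at 0 h, 1239.6 ± 115 at 36 h and 179 ± 32.2 at 72 h (SD, n = 3 each), so the fall over the whole course contains a maximum.

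**Figure D5:**
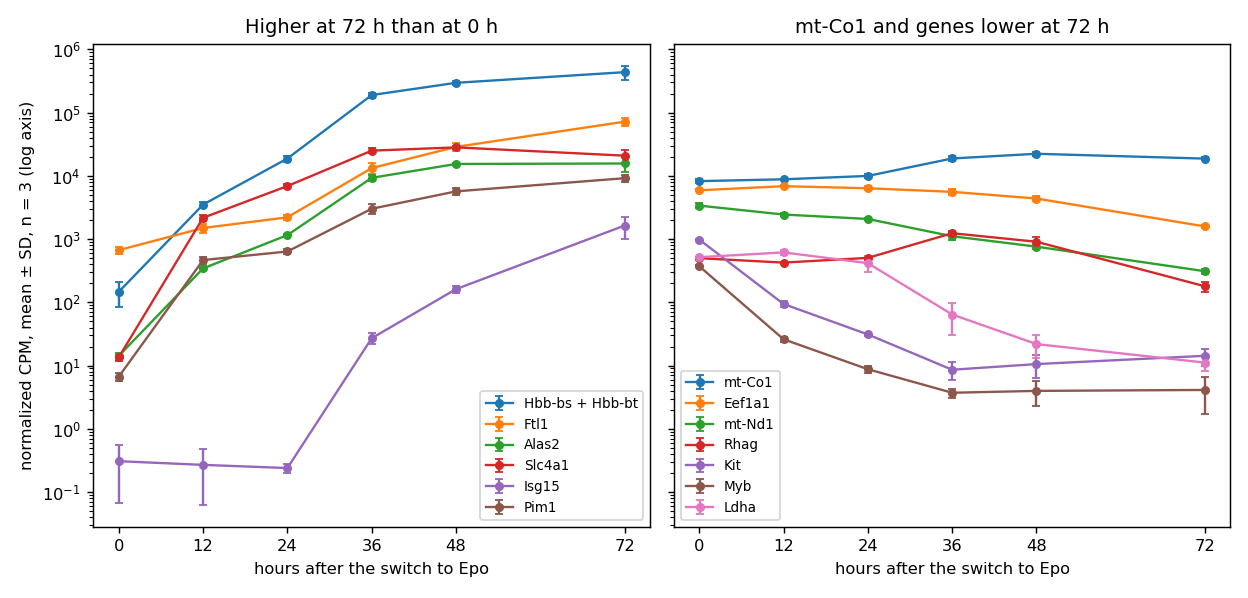
Normalized CPM (y, log axis, mean ± SD, n = 3) at the 6 times of the Epo course (x, hours) for the adult beta globin sum and 5 genes that were higher at 72 h (left) and for mt-Co1 and 6 genes lower at 72 h (right). The mean of the adult beta globin sum climbs to the end, Slc4a1 is at its 72 h level by 36 h, Isg15 climbs after 24 h, and Kit and Myb drop within the first day.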

How the data were processed

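Polyadenylated RNA of 21 libraries (7 groups of 3) was sequenced. The authors deposited a table of estimated counts per gene, not scaled for depth, and a table of TPM per gene, each with 22483 genes. The submitters' processing notes name STAR 2.5.3a, kallisto, DESeq2 and 2 builds, mm10 and GRCm38.p5. Which tool made which table is not given in the sources used here. Counts were rounded. Genes passing filterByExpr (minimum count 10) over the 7 groups were fitted with edgeR 4.0.16 (TMM, glmQLFit and glmQLFTest, 2-sided) on all 21 libraries, and the contrast of 72 h with 0 h was adjusted over 12360 genes (Benjamini-Hochberg, threshold 0.05). The biological coefficient of variation was 11.6%. Standard errors were derived from the F statistic (log2 change over its root) and are approximate. TPM was tested with limma 3.58.1 (trend) on log2(TPM + 1), over 9440 genes whose mean in the 6 libraries reached 1 TPM, and this scale understates changes of low genes. Where a group was at 0, 3 counts in that group served as the floor of a fold, and intervals and floors cover counting error only.

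Libraries of a group differed by more than sampling noise (chi-square per gene 6.60 to 9.26 at 0 h and 85.4 to 270 at 72 h). Each fit used 1 estimate of the spread per gene for all 7 groups. Standard errors and p-values can therefore understate the spread at 72 h. The members, the 33 pathway and 9 marker lists and the rules were chosen with earlier results of these data known. Named genes were the 10 highest in TPM at each time, the 10 largest rises and falls with a mean count of at least 100, up to 3 called members a direction of each list, the 10 largest rises in TPM above 100 TPM, the abundant genes of both times and a fixed panel. Alad, Cpox, Icam4, Tpt1, Rpl23a, Rpl10a and Gm11808, and the motif of Ifit1, were picked after values were seen. Gene symbols were matched to promoters of RefSeq. Both fits were run on simulated data, drawn from the 0 h shares with a limited set of non-globin genes changed at 72 h. The simulation lacks the shift in composition seen here, so it cannot show how the fits behave under it. Alternatives were other size factors, DESeq2 1.42.0, filters, pseudocounts, the replicate block, subsets of genes or libraries, and each library left out. Some genes of these lists are not reported here by name.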

Additional observations from a re-analysis of the deposited data

How the results depend on the processing

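The number of genes that rose on the TMM scale, 5354, was 5801 with the size factors of DESeq2, 5797 in its Wald test, 6784 without a count filter and 4781 with the 6 libraries alone, and the number that fell, 5748, was 5286, 5299, 6114 and 5554. Leaving out each library in turn gave 5314 to 5428 higher and 5711 to 5748 lower, and in TPM 441 to 583 higher and 8455 to 8742 lower. With all genes above 0 in 3 libraries, 1154 rose in TPM in place of 523. The median of tested genes, -0.13, was 0.13 with the size factors of DESeq2 and -0.12 to -0.0809 with a library left out. The genes holding 50% of TPM were 430 at 0 h without mitochondrially encoded genes, and 57.7 at 72 h without globins. The genes among the 100 highest at both times were 12 without mitochondrially encoded genes. No result called in the analysis reported above changed direction, while Actb, not called there, was called in opposite directions by the alternatives named with it. With the replicate block 5379 genes rose and 5793 fell, and 534 and 8640 in TPM. The same-numbered libraries of 0 h and 72 h had correlations of deviations of 0.010, -0.024 and 0.040 over 8997 genes, under the 0.1 required, so the numbers were not taken as pairs. Calls near the threshold were lost in TPM for Fech, Tal1, Ubb, Glrx5, Cat, Cdkn2b and Lmna under 1 or more settings, and the cause was not tested.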

Other observations

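Several transcripts among the 100 highest in TPM at 72 h belong to no list above, and they were picked after their values were seen. Class I histocompatibility genes rose beside B2m: H2-D1 had 79.1 ± 2.25 TPM at 0 h and 874 ± 218 TPM at 72 h (SD, n = 3), and H2-T23 had 18.2 ± 2.02 and 266 ± 121 TPM (SD, n = 3). The mast cell protease genes Mcpt1 and Mcpt2 had 5.93 ± 2.72 and 11.7 ± 8.57 TPM at 0 h and 189 ± 74.7 and 196 ± 61.0 TPM at 72 h (SD, n = 3 each), while the markers of mast cells and basophils as a sum were lower at 72 h than at 0 h. Csf2rb and Csf2rb2, genes of beta chains of cytokine receptors, had 29.3 ± 17.8 and 12.3 ± 7.61 TPM at 0 h and 218 ± 57.3 and 233 ± 64.9 TPM at 72 h (SD, n = 3 each). For these 4 genes 0 h replicate 1 was the highest 0 h library, at 8.88, 21.2, 49.0 and 20.9 TPM for Mcpt1, Mcpt2, Csf2rb and Csf2rb2. Gadd45a and Ddit3, genes of the stress response, rose by 8.21 ± 0.18 and 6.89 ± 0.32 on the TMM scale (SE). Hmox1, which degrades heme, rose by 7.76 ± 0.38 (SE), from 13.2 ± 1.17 TPM to 200 ± 48.0 TPM (SD, n = 3).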
